A study of Homo sapiens with 6 samples.

Results

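The 7 genes described here write, maintain or erase DNA methylation and were followed through 6 poly(A) RNA-seq libraries of C4-2B cells, a human prostate cancer line that derives from LNCaP and forms bone metastases. They are UHRF1, the methyltransferases DNMT1, DNMT3A and DNMT3B, and the dioxygenases TET1, TET2 and TET3, matched by symbol. All 7 were listed in every table, among 17602 genes in the SR2211 experiment, 16293 in the XY011 experiment and 22642 in the enzalutamide experiment (26742 distinct names). The set was chosen by function, with measured changes of these same libraries already known, among them the decrease of UHRF1 with SR2211 and XY011. Their values are therefore a description, and no test is given.

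The treated groups were SR2211 at 5 µM, an inverse agonist of the nuclear receptor RORγ, XY011 at 5 µM, known here by its code name alone, and enzalutamide (ENZ) at 20 µM, an antagonist of the androgen receptor. Each was set against the vehicle library of its own experiment, with 1 library per group and 48 h of exposure. All groups, vehicles included, were kept in medium with 9% charcoal-stripped and 1% regular serum. Groups follow the sample titles: the text on RNA extraction names XY018 beside SR2211 for the SR2211 and XY011 experiments, and SR2211 for the ENZ pair. C4-2B is a single line, and there were no replicates.

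DNA methylation at CpG sites is copied when the genome is copied. UHRF1 binds the hemimethylated sites left behind a replication fork and recruits DNMT1, which methylates the new strand, while DNMT3A and DNMT3B can methylate sites that carried no mark. TET enzymes oxidise 5-methylcytosine, the first step of its active removal. UHRF1 and DNMT1 are known as E2F-regulated genes whose RNA is high in cells that replicate DNA, and changes of promoter methylation are a long-known feature of prostate cancer.

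The promoter windows of UHRF1 and DNMT1 are shown because these were the members that were lower by the size rule below, and because letters of the E2F motif lay in both. RefSeq windows on GRCh38.p14 run from 250 bases before a transcription start to 50 after it, and bases 61 to 270 of each window are printed 5′ to 3′ on the strand of the gene. Capitals mark a match to TTTGGCGC, TTTCGCGC or TTTCCCGC on either strand. UHRF1 has 3 windows, and the stretch printed from the first is chr19:4909311-4909520 on the plus strand, that from the second chr19:4909954-4910163 on the plus strand. The DNMT1 stretch is chr19:10194934-10195143 on the minus strand.
UHRF1 window 1: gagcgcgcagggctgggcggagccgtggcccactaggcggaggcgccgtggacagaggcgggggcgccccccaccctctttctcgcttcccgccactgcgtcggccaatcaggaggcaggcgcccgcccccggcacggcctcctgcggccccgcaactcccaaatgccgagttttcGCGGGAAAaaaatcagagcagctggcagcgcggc
UHRF1 window 2: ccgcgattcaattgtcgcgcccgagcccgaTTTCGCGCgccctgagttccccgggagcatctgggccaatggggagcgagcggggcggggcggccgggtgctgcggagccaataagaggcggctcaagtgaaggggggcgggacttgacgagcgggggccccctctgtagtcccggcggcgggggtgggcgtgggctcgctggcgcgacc
DNMT1 window 1: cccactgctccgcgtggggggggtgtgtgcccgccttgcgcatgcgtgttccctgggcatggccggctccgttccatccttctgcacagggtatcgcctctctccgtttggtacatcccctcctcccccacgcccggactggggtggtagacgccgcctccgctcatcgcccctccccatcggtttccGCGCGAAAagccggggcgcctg
The match began 14 bases before the start in the first UHRF1 window, 160 before it in the second and 2 before it in DNMT1. None was found in the third UHRF1 window or in any window of DNMT3A, DNMT3B, TET1, TET2 and TET3, which says only that these letters are not there. The 7 genes have 18 windows, of which 3 held such a match, against 2.74% of 35116 RefSeq windows. By gene, 2 of the 7 held it, as did 15 of the 32 DNA replication genes of a list below that have a window, against 3.30% of 27305 genes. CCAAT, searched on both strands, was found in 6 of the 18 windows and in 34.6% of all windows. AGGTCA, the core letters that nuclear receptors such as the ROR proteins recognise, occurred in 3 of the 18 windows, those of DNMT3A and TET1, against 13.8% of all windows. The CHR letters TTTGAA or TTCGAA occurred in 2 of the 18, of DNMT3A and TET2, against 16.4% of all windows. Windows of 1 gene can overlap.

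Levels are reads (RPKM, SR2211 experiment) or fragments (FPKM, XY011 and ENZ experiments) per kilobase of gene, scaled to the mapped total by the authors. A change is log2((treated + 1)/(vehicle + 1)), tested where either library of a pair reached 1. A gene is called higher or lower at a change of 1 or more in size, a rule of size with no p-value. This filter was passed by 7 members with SR2211 and by 6 each with XY011 and ENZ, where TET1 stayed under 1. The SR2211 pair held 8.16 M mapped reads with SR2211 and 8.20 M in its vehicle, read back from short genes. In the ENZ pair 513 of 21912 genes shared a treated to vehicle ratio of 1.047, whereas the XY011 values, rounded to 2 decimals, gave no such step and their depth is unknown. All 8 luminal prostate markers stood at 1 or more in the 6 libraries. Blood and endothelial markers stayed under 1, and the collagen gene COL1A1 reached 34.8 FPKM with ENZ and 14.1 FPKM in the ENZ vehicle. All 3 fibroblast markers stood at 4.34 FPKM or more in both ENZ libraries, and 1 of them reached 1 in each other library. Among 3 basal markers, 2 reached 1 in the ENZ vehicle (highest 3.39 FPKM). With ENZ, and in the SR2211 and XY011 vehicles, 1 did.

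UHRF1 had the largest change of the set with each compound. It stood at 3.00 RPKM with SR2211, against 21.8 RPKM in its vehicle. It stood at 0.460 FPKM with XY011, against 14.1 FPKM in its vehicle. It stood at 6.06 FPKM with ENZ, against 11.6 FPKM in its vehicle. Each treated library was thus below its own vehicle. The ratios were 7.27-fold lower with SR2211, 30.7-fold lower with XY011 and 1.91-fold lower with ENZ. The size of the XY011 ratio is uncertain. It divides by 0.460 FPKM, a value under the filter of 1 in a library of unknown depth, so it has no counting interval. On the log2 scale with the pseudocount these were -2.51, -3.37 and -0.83, so UHRF1 was called lower with SR2211 and XY011 and not with ENZ.

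**Figure D1:**
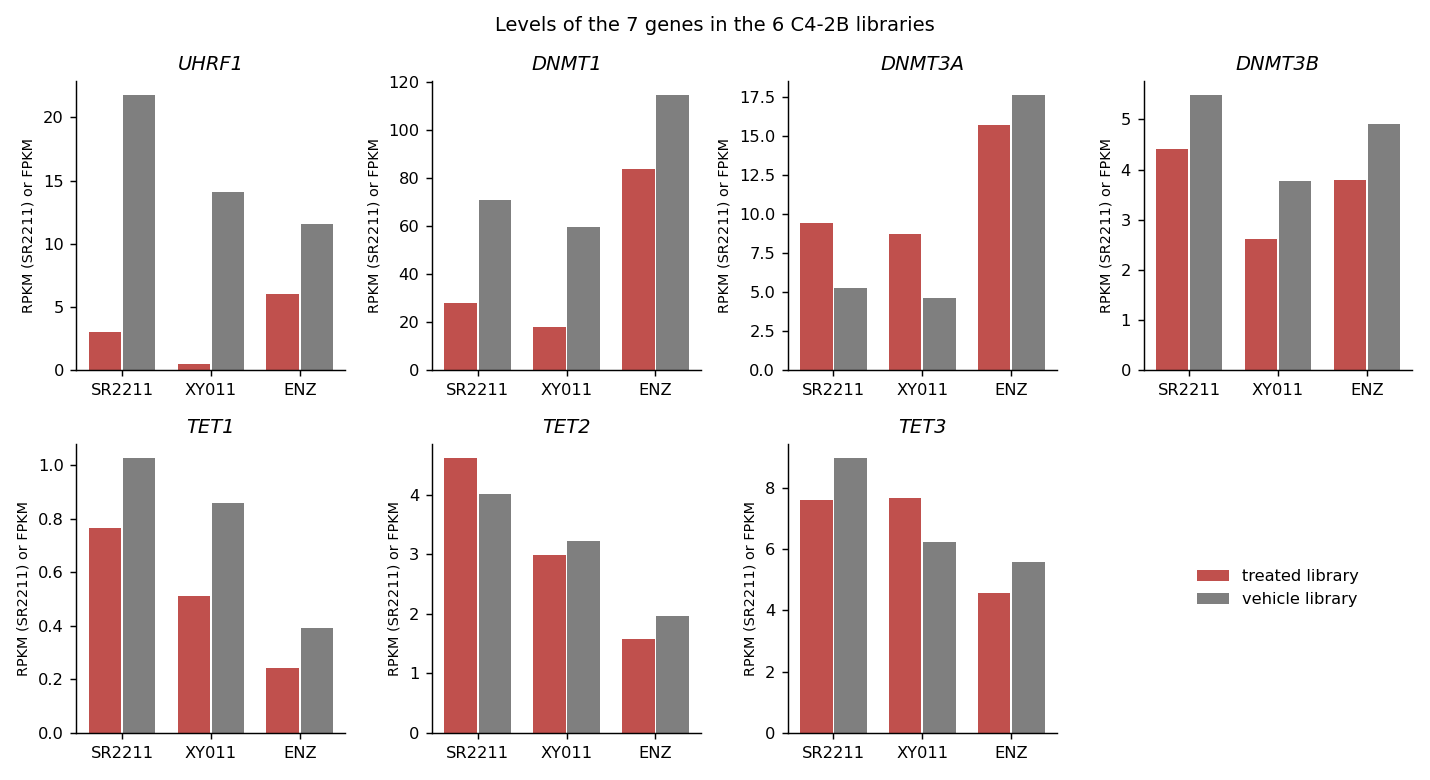
Level of each of the 7 genes (RPKM in the SR2211 experiment, FPKM in the others) in the treated library (red, left bar) and the vehicle library (grey, right bar) of the 3 experiments, 1 library per bar, so there are no error bars. UHRF1 and DNMT1 are below their vehicles in every pair, and DNMT3A is above its vehicle with SR2211 and XY011.

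Among all genes tested, UHRF1 had the 9th largest decrease of 12154 with SR2211 and the 13th of 12617 with XY011. With ENZ it was at place 1323 of 19270. The values of the SR2211 pair are multiples of whole reads, and the smallest numbers that give the UHRF1 values are 10 reads with SR2211 and 73 in vehicle. The ratio of 0.138 has an exact 95% interval of 0.0633 to 0.268 from those numbers, which covers counting error only. They imply a gene of 409 bases, while GENCODE 29 lists UHRF1 transcripts of up to 4309 bases. If the true numbers were 100 and 730, the largest multiple within that length, the interval would be 0.111 to 0.170.

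DNMT1, the maintenance methyltransferase, was the second member called lower. It was at 28.2 RPKM with SR2211, against 70.8 RPKM in vehicle, and at 17.9 FPKM with XY011, against 59.6 FPKM in vehicle. It was at 83.6 FPKM with ENZ, against 114.5 FPKM in vehicle. Its log2 changes were -1.30, -1.68 and -0.45, and it took places 295, 397 and 3480 from the largest decrease. In the SR2211 pair the DNMT1 values correspond to 1247 and 3149 reads, a ratio of 0.398 with a counting interval of 0.372 to 0.425.

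UHRF1 and DNMT1 were thus the 2 of 7 members called lower with SR2211, where 5.75% of all tested genes were lower and 5.1% higher. They were also the 2 of 6 called lower with XY011, where 13.2% were lower and 7.59% higher. With ENZ 0 of 6 members were called in either direction, against 4.68% lower and 3.67% higher of all tested genes, on a table in which no gene is at 0 in vehicle. That ENZ count was 1 lower (UHRF1) at a threshold of 1.5-fold, and 4 lower (UHRF1, TET1, TET2 and TET3) against the mean of the vehicles of the other experiments. No member was called higher with any compound, while DNMT3A was with SR2211 and XY011 at 1.5-fold, and TET2 with SR2211 against the other vehicles. These shares are given for scale, since the same contrasts were known when the set was chosen. RNA from bulk cultures was measured, in which fewer cells in the phases that express a gene and less RNA per cell cannot be told apart.

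**Figure D2:**
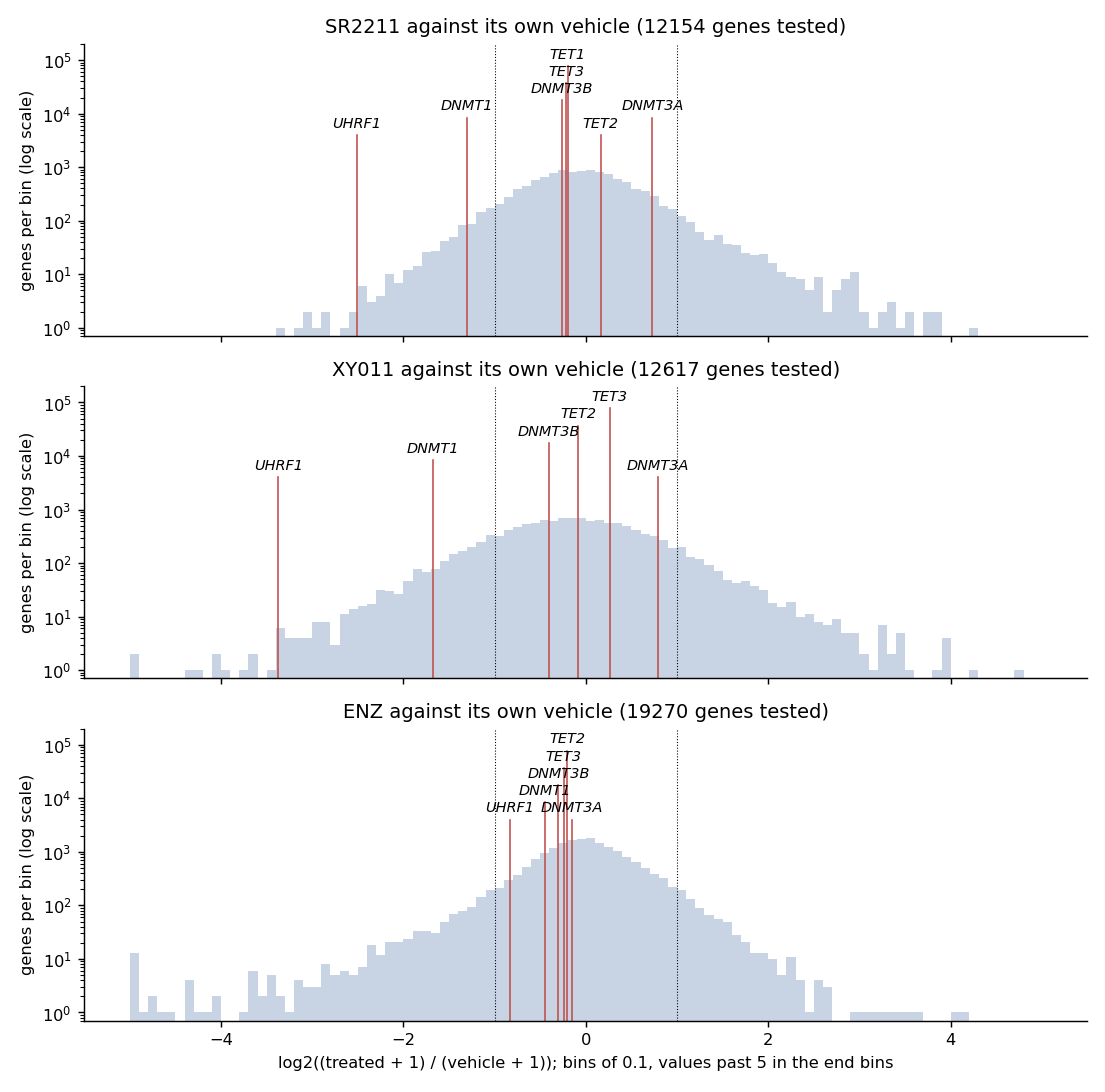
Histograms of the log2 change of all tested genes for each compound against its own vehicle (counts on a log axis), with red lines at the members that were tested and dotted lines at the size rule of 1. UHRF1 lies in the far left tail with SR2211 (-2.51) and XY011 (-3.37), and inside the dotted lines with ENZ (-0.83).

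DNMT3A, a de novo methyltransferase, was the member with the largest positive values. It stood at 9.45 RPKM with SR2211, against 5.30 RPKM in vehicle, and at 8.72 FPKM with XY011, against 4.63 FPKM in vehicle. With ENZ it stood at 15.7 FPKM, against 17.7 FPKM in vehicle. The log2 changes of 0.73, 0.79 and -0.16 did not reach the size rule. For SR2211 the smallest read numbers were 339 and 191, a ratio of 1.78 with a counting interval of 1.49 to 2.14, which lies above 1, while the spread between cultures was not measured.

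DNMT3B, the other de novo enzyme, was at 4.42 RPKM with SR2211, against 5.49 RPKM in vehicle, at 2.61 FPKM with XY011, against 3.78 FPKM in vehicle, and at 3.80 FPKM with ENZ, against 4.91 FPKM in vehicle. Its log2 changes of -0.26, -0.41 and -0.30 were all under the size rule. The SR2211 ratio of 0.805 had a counting interval of 0.648 to 0.998. The DNMT3A and DNMT3B values therefore stood on opposite sides of their vehicles with SR2211 and XY011, and on the same side with ENZ.

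The TET genes had small values throughout. TET3, the most abundant of them in all 6 libraries, was at 7.62 RPKM with SR2211, against 8.99 RPKM in vehicle. It was at 7.67 FPKM with XY011, against 6.23 FPKM in vehicle, and at 4.58 FPKM with ENZ, against 5.60 FPKM in vehicle. The log2 changes were -0.21, 0.26 and -0.24, so the treated library was above its vehicle with XY011 alone. TET2 was at 4.63 RPKM with SR2211, against 4.02 RPKM in vehicle, at 2.99 FPKM with XY011, against 3.22 FPKM in vehicle, and at 1.57 FPKM with ENZ, against 1.96 FPKM in vehicle. Its changes were 0.16, -0.08 and -0.20, and the XY011 value became 0.04 when the median gene of the pair was set to 0 and 0.07 after quantile scaling. TET1 was the lowest of them, at 0.766 RPKM with SR2211, against 1.03 RPKM in vehicle, at 0.510 FPKM with XY011, against 0.860 FPKM in vehicle, and at 0.244 FPKM with ENZ, against 0.392 FPKM in vehicle. Its SR2211 values rest on as few as 20 reads, against 27 in vehicle, and the counting interval of the ratio, 0.396 to 1.38, spans 1. The TET2 interval, 0.988 to 1.34, spans 1 as well, while that of TET3, 0.764 to 0.939, lies below it.

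The order of the 7 levels within a library changed with SR2211 and XY011 and not with ENZ. UHRF1 was at place 6 of 7 with SR2211, against place 2 in vehicle, and at place 7 with XY011, against place 2 in vehicle. With ENZ it was at place 3, as in vehicle, and all 7 genes kept their places there. DNMT1 was at place 1 in all 6 libraries, and DNMT3A took place 2 with SR2211 and XY011, against places 5 and 4 in their vehicles. TET1 was the lowest in 5 libraries and UHRF1 in the XY011 library. With 1 library per group the spread of neighbouring levels is unknown. DNMT3B and DNMT3A in the SR2211 vehicle (5.49 and 5.30 RPKM) rest on 196 reads and on at least 191 reads. TET1 and UHRF1 with XY011 rest on 0.510 and 0.460 FPKM.

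The make-up of the methyltransferase RNA differed between treated and vehicle libraries with SR2211 and XY011. DNMT1 held 67.0% of the summed level of the 3 DNMT genes with SR2211, against 86.8% in vehicle, and 61.3% with XY011, against 87.6% in vehicle. With ENZ it held 81.1%, against 83.5% in vehicle. DNMT3A held 22.5% with SR2211, against 6.50% in vehicle, and 29.8% with XY011, against 6.81% in vehicle, while with ENZ it held 15.3%, against 12.9% in vehicle. The summed DNMT level was 3.23 times the summed TET level with SR2211, against 5.81 times in vehicle, 2.62 times with XY011, against 6.59 times in vehicle, and 16.1 times with ENZ, against 17.2 times in vehicle. TET3 held 58.6% of the TET sum with SR2211, against 64.0% in vehicle, 68.7% with XY011, against 60.4% in vehicle, and 71.6% with ENZ, against 70.4% in vehicle.

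**Figure D3:**
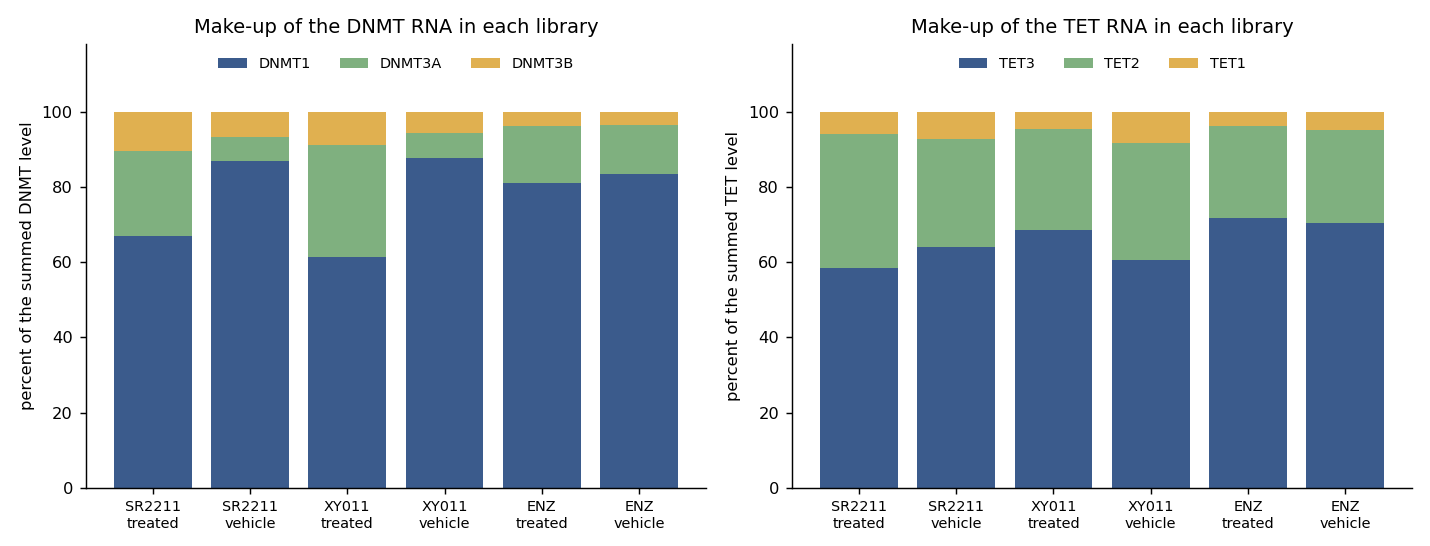
Share of each gene in the summed level of its family (percent, 1 library per bar, treated left of vehicle) for the DNMT genes (left) and the TET genes (right). The DNMT1 share is 67.0% with SR2211 and 61.3% with XY011, against 86.8% and 87.6% in their vehicles, and it is 81.1% with ENZ, against 83.5% in vehicle.

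UHRF1 was further below its vehicle than DNMT1 in each pair. There were 9.39 times as much DNMT1 as UHRF1 per length with SR2211, against 3.25 times in vehicle, and 38.9 times with XY011, against 4.22 times in vehicle. With ENZ there were 13.8 times as much, against 9.91 times in vehicle. UHRF2, the paralog of UHRF1, was called with no compound. It was at 9.84 RPKM with SR2211, against 8.85 RPKM in vehicle (log2 0.14), and at 10.6 FPKM with XY011, against 6.05 FPKM in vehicle (log2 0.72). With ENZ UHRF2 was at 8.89 FPKM, against 18.6 FPKM in vehicle, a change of -0.99 that lies just short of the size rule. UHRF1 stood at 0.305 times the UHRF2 level with SR2211, against 2.46 times in vehicle, at 0.0435 times with XY011, against 2.34 times in vehicle, and at 0.681 times with ENZ, against 0.620 times in vehicle. The 38.9 and 0.0435 times with XY011 rest on 0.460 FPKM of UHRF1 and have no counting interval. DNMT3L, a cofactor of the de novo enzymes without activity of its own, was at the value that stands for no reads with SR2211 and XY011, against 0.0708 RPKM and 0.130 FPKM in their vehicles, and at 0.292 FPKM with ENZ, against 0.732 FPKM in vehicle.

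SR2211 and XY011 share dose and time, though not unit or experiment. The change of UHRF1 was smaller in size with SR2211 than with XY011 by 0.86 on the log2 scale, and that of DNMT1 by 0.38, while DNMT3A differed by -0.06. TET3 differed by -0.48, the 2 compounds lying on either side of 0. With 1 pair each, no interval between compounds can be given. The ENZ dose differed, so its values stand beside the others without a comparison.

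The vehicle libraries also differed from one another. After scaling each library to a sum of 1000000 over the 13360 genes that all tables list, UHRF1 was at 54.8, 30.8 and 16.8 in the vehicles of the SR2211, XY011 and ENZ experiments, a range of 3.26-fold. The same range was 1.37-fold for DNMT1, 2.54-fold for DNMT3A, 1.93-fold for DNMT3B, 4.54-fold for TET1, 3.55-fold for TET2 and 2.78-fold for TET3. The lowest vehicle for UHRF1, that of ENZ, was still above the SR2211 library at 7.50 and the XY011 library at 0.991 on this scale. Between the SR2211 and XY011 vehicles UHRF1 differed by 0.81 on the log2 scale, and 13.2% of 12552 genes passed the size rule there. Unit and processing differ between the experiments and cannot be told apart from a difference between cultures.

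Partners of maintenance methylation were lower in part. Of 18 such genes, all tested, 5 were lower with SR2211 (median -0.38, against -0.07 for all tested genes) and 4 with XY011 (median -0.58, against -0.14). With ENZ 1 was lower (median -0.15, against -0.02), and none was higher with any compound. These counts were 27.8%, 22.2% and 5.56% of the list, against 5.75%, 13.2% and 4.68% of all tested genes. The ENZ share was thus near that of all genes. PCNA, the sliding clamp to which DNMT1 binds, was at 39.4 RPKM with SR2211, against 121.1 RPKM in vehicle, at 39.9 FPKM with XY011, against 138.2 FPKM in vehicle, and at 75.2 FPKM with ENZ, against 117.2 FPKM in vehicle (log2 -0.63). HELLS, a chromatin remodeller needed for methylation in compact chromatin, was at 2.75 RPKM with SR2211, against 8.98 RPKM in vehicle, and at 0.900 FPKM with XY011, against 5.12 FPKM in vehicle. Its partner CDCA7 changed by -1.44 and -1.32, and the histone H3 lysine 9 methyltransferase gene SUV39H1 by -1.30 with SR2211. LIG1, the replicative DNA ligase that UHRF1 binds, was lower with all 3 compounds (-1.19, -1.24 and -1.31), and was the 1 partner called with ENZ, at 10.5 FPKM, against 27.5 FPKM in vehicle.

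Genes of DNA replication were lower beside UHRF1 and DNMT1. Of 38 on the list, 27 were lower with SR2211 (median -1.21), 32 with XY011 (median -1.78) and 2 with ENZ (median -0.49). None was higher. The counts made up 71.1%, 84.2% and 5.26% of the list, against 5.75%, 13.2% and 4.68% of all tested genes. With ENZ the list was thus near the share of all genes. UHRF1 had a larger decrease than all 38 with SR2211, and 4 of 38 exceeded it with ENZ. With XY011, where it rests on 0.460 FPKM, UHRF1 was level with FEN1 (-3.37 for both) and below the other genes. The nearest to it were RRM2 (-2.17), a ribonucleotide reductase gene, MCM10 (-2.14), FEN1 (-2.13) and the helicase subunit gene MCM3 (-2.04) with SR2211, and FEN1 (-3.37), MCM3 (-3.08), POLE2 (-2.91) and MCM10 (-2.76) with XY011. DNMT1 lay close to the middle of the list, with 17, 22 and 23 of 38 genes showing a larger decrease in the 3 comparisons, and its distance from the list median was -0.09, 0.10 and 0.04. CCNE2 (-1.32) and PRIM1 (-1.01) were the 2 replication genes called with ENZ. Per unit of PCNA, UHRF1 stood at 7.61% with SR2211, against 18.0% in vehicle, at 1.15% with XY011, against 10.2% in vehicle, and at 8.06% with ENZ, against 9.86% in vehicle. For DNMT1 these shares were 71.4% with SR2211, against 58.4% in vehicle, 44.9% with XY011, against 43.1% in vehicle, and 111.2% with ENZ, against 97.7% in vehicle. The 1.15% of UHRF1 with XY011 rests on 0.460 FPKM and has no counting interval. The part of the lower replication genes in the UHRF1 and DNMT1 values was not tested.

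**Figure D4:**
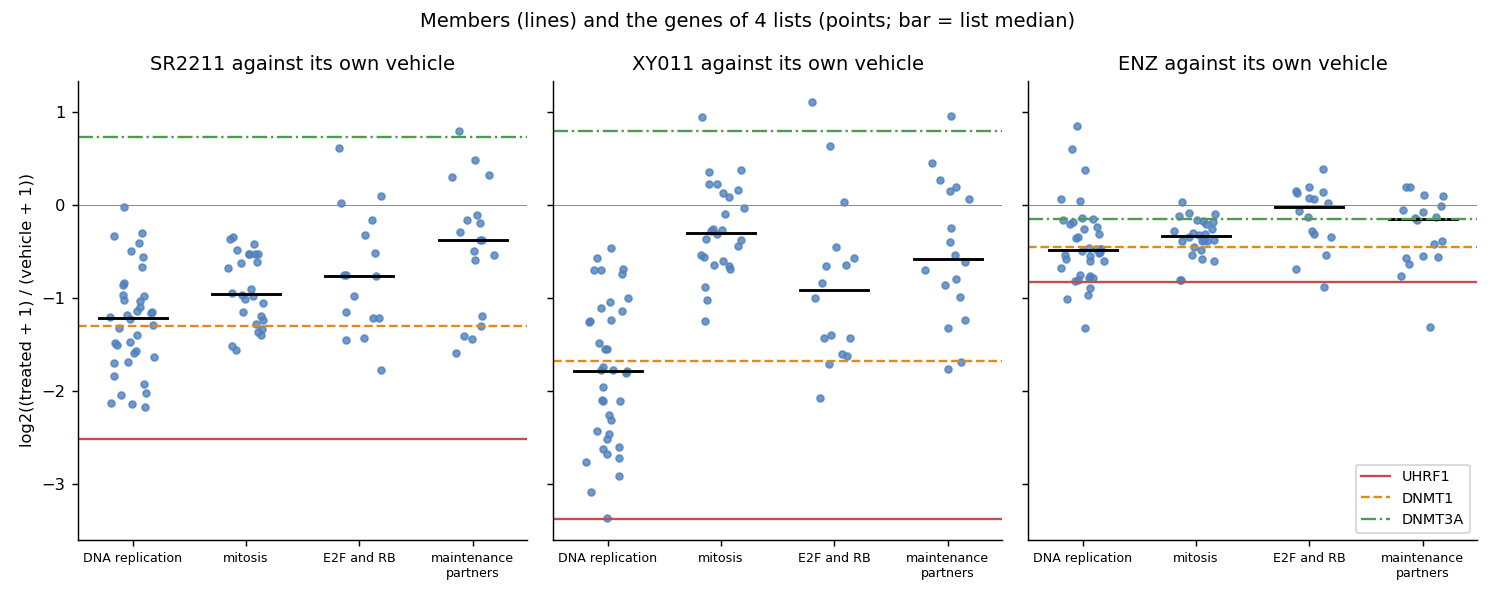
Log2 change of each tested gene (blue points) of 4 lists with SR2211, XY011 and ENZ, each against its own vehicle, with black bars at list medians and lines at UHRF1 (red), DNMT1 (orange, dashed) and DNMT3A (green, dash-dotted). The UHRF1 line lies below all points with SR2211 and level with the lowest point (FEN1) with XY011. The DNMT1 line lies near the replication median in the 3 panels.

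Mitosis genes, 26 on the list, are given beside the replication genes. With SR2211 11 were lower (median -0.96, against 5.75% of all tested genes lower), led by KIF20A (-1.56), BIRC5 (-1.51), CCNA2 (-1.40) and AURKB (-1.36). With XY011 BIRC5 (-1.25) and AURKB (-1.02) were the 2 lower ones (median -0.30). They were 7.69% of the list, against 13.2% of all tested genes. With ENZ 0 were lower (median -0.34), against 4.68% of all tested genes. MKI67, the Ki-67 proliferation marker gene, was at 22.5 RPKM with SR2211, against 55.9 RPKM in vehicle, at 36.6 FPKM with XY011, against 59.8 FPKM in vehicle (log2 -0.69), and at 15.2 FPKM with ENZ, against 27.5 FPKM in vehicle (log2 -0.81). UHRF1 lay 1.55 below the mitosis median with SR2211 and 3.07 below it with XY011 on the log2 scale.

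A list of E2F and RB genes, joined by FOXM1, MYBL2 and LIN9 of the cell cycle gene program, was lower in 6 of 16 with SR2211 (median -0.76). With XY011 7 of 16 were lower (median -0.92) and E2F5 was higher (1.11). Against these 37.5% and 43.8%, 5.75% and 13.2% of all tested genes were lower. The 1 higher gene with XY011 was 6.25% of the list, against 7.59% of all tested genes. E2F1 was at 15.6 RPKM with SR2211, against 37.5 RPKM in vehicle, at 5.94 FPKM with XY011, against 28.2 FPKM in vehicle, and at 24.5 FPKM with ENZ, against 31.4 FPKM in vehicle (log2 -0.35). Other decreases on the list included E2F8 (-1.77), E2F2 (-1.45) and E2F7 (-1.43) with SR2211, and MYBL2 (-1.71), E2F2 (-1.62) and RBL1 (-1.60) with XY011. E2F8 and E2F7 are known as repressors, and E2F2 and E2F1 as activators. RB1, the retinoblastoma gene, had changes of -0.16, -0.84 and -0.54, and 0 of 16 were called with ENZ (median -0.02). Among all tested genes 3.67% were higher and 4.68% lower with ENZ.

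By likeness over the 3 log2 changes (Euclidean distance among 11131 genes tested in all 3 experiments), the genes nearest to UHRF1 were FEN1 (distance 0.38), APLN (0.50), C9orf152 (0.53), MCM3 (0.55), FAM111B (0.64), DNASE2B (0.66), MCM10 (0.73), PCOTH (0.76), HNRNPM (0.76) and MCM4 (0.86). Of these 10, 4 are on the replication list (FEN1, MCM3, MCM10 and MCM4), which makes up 0.341% of the genes compared. That share is for scale only, since genes near UHRF1 are by construction strongly lower with SR2211 and XY011. On the list of 38, 27 and 32 were lower there. Among the 10 genes nearest to DNMT1 were TMPO-AS1 (0.06), RFWD3 (0.07), FAM136A (0.09), HNRNPA2B1 (0.10), IMP3 (0.10), DTYMK (0.13), ISOC2 (0.14), HELLS (0.15) and LCMT2 (0.15), and 0 of the 10 are on the replication list. That count depends on which genes the list holds. DNMT1 itself lay -0.09, 0.10 and 0.04 from the median of the list with SR2211, XY011 and ENZ.

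Readers of methylated CpG sites moved in both directions. MBD6, a protein with a methyl-CpG-binding domain, was at 31.5 RPKM with SR2211, against 11.9 RPKM in vehicle, at 52.4 FPKM with XY011, against 9.90 FPKM in vehicle, and at 22.7 FPKM with ENZ, against 12.0 FPKM in vehicle (log2 0.87). MBD3, a subunit of the NuRD complex, was lower with SR2211 (-1.01) and XY011 (-1.53), and MBD5 was higher with XY011 (1.52). Of 10 readers, 1 was higher and 1 lower with SR2211 (median 0.01), and 2 were higher and 1 lower with XY011 (median 0.41). With ENZ 0 were called (median 0.03). Among all tested genes, 5.1% were higher and 5.75% lower with SR2211, 7.59% and 13.2% with XY011, and 3.67% and 4.68% with ENZ.

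Genes tied to active demethylation and base repair included the largest increase of all lists with SR2211 and XY011. GADD45A, a stress-induced gene that has been linked to DNA demethylation, was at 33.7 RPKM with SR2211, against 3.40 RPKM in vehicle, and at 44.2 FPKM with XY011, against 3.96 FPKM in vehicle. Its relative GADD45B was at 17.3 FPKM with XY011, against 2.62 FPKM in vehicle. TDG, the glycosylase that excises oxidised 5-methylcytosine made by TET enzymes, was lower with XY011 (12.1 FPKM, against 29.8 FPKM in vehicle) and had changes of -0.88 with SR2211 and -0.74 with ENZ. Also lower were PARP1 (-1.12 with SR2211 and -1.52 with XY011) and the uracil glycosylase gene UNG (-1.14 with SR2211). In all, 1 of 15 tested genes was higher and 2 lower with SR2211 (median -0.16), and 2 higher and 3 lower with XY011 (median -0.12). None was called with ENZ (median 0.07). The SR2211 shares were 6.67% higher and 13.3% lower, against 5.1% and 5.75% of all tested genes. Those with XY011 were 13.3% and 20%, against 7.59% and 13.2%. Among proteins reported to bind TET enzymes, CXXC5 was higher with SR2211 (1.10) and WT1 lower with XY011 (-1.17), of 4 tested in each comparison. None of these was called with ENZ (medians 0.27, -0.06 and -0.02). Each call was 25% of the genes tested, against 5.1% higher with SR2211 and 13.2% lower with XY011 of all tested genes. With ENZ 3.67% of all tested genes were higher and 4.68% lower.

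Genes commonly silenced by promoter methylation were measured in part. Of 19 known for this in prostate cancer, the SR2211 table listed 14, of which 4 passed the filter, that of XY011 listed 10, of which 4 passed, and that of ENZ listed 13, of which 9 passed. MGMT was higher with SR2211 (1.04), RASSF1 higher (1.00) and RARB lower (-1.03) with XY011, and APC lower with ENZ (-1.10). The medians were -0.31, 0.30 and -0.19. In those vehicles MGMT stood at 13.4 RPKM, RASSF1 at 6.48 FPKM, RARB at 1.96 FPKM and APC at 8.67 FPKM, so none was silent there. The calls were 25% higher with SR2211, 25% each way with XY011 and 11.1% lower with ENZ. Among all tested genes 5.1% were higher with SR2211, 7.59% higher and 13.2% lower with XY011, and 4.68% lower with ENZ. RASSF1 only just met the size rule with XY011, and its changes with SR2211 (-0.78) and ENZ (-0.48) went the other way. GSTP1, whose promoter is methylated in most prostate cancers, had a value in the ENZ table, at 1.45 FPKM with ENZ, against 0.347 FPKM in vehicle (log2 0.86, not called). Of 20 germline genes that methylation keeps silent in other tissues, 8, 11 and 11 were tested and none was higher. The others were not listed or stayed under 1 in both libraries of the pair. Some of those tested were expressed in vehicle, PAGE1 at 194.6 RPKM in that of SR2211. The counts therefore do not describe silent genes alone. MAGEA1 was lower with SR2211 (15.3 RPKM, against 43.1 RPKM in vehicle) and with XY011 (9.69 FPKM, against 39.5 FPKM in vehicle), and SYCP3 was lower with XY011 (-1.65) and with ENZ (-1.03). With XY011 PAGE1 (-1.14), SSX2 (-2.09) and SSX1 (-1.16) were also lower, the SSX pair standing at the value for no reads. The count was 1, 5 and 1 lower with SR2211, XY011 and ENZ (medians -0.30, -0.88 and -0.15). These counts were 12.5%, 45.5% and 9.09% of the germline genes tested, against 5.75%, 13.2% and 4.68% of all tested genes. MAGE, SSX and PAGE genes have close copies, so their single values are uncertain.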

How the data were processed

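RNA-seq values of 6 libraries (3 experiments, each a treated and a vehicle library) were taken as the authors deposited them. Per the file headers, the SR2211 pair holds RPKM and the other pairs FPKM. The authors' stand-in for no reads is 0.01 RPKM for SR2211 and 0.001 FPKM for XY011, and ENZ files use 0. BWA, Bowtie, Cufflinks and Cuffdiff, with GRCh37 and hg19, are named in the submitters' processing notes. Tool roles, versions, annotation and strand use: not given in the sources used here. Antisense reads therefore cannot be told apart.

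Members and lists were chosen with earlier results of these data known. Tables were joined by Entrez number or, for ENZ, by symbol (16846 of 22642 names matched), and ENZ lines of 1 symbol were summed. Small RNA genes were left out. Changes are log2(value + 1) differences, and the filter was a value of 1 in either library, which left 12154, 12617 and 19270 genes. The code was tested on simulated data. Named genes are the members, UHRF2, DNMT3L, E2F1, RB1, PCNA, MKI67, GSTP1, up to 4 called genes of largest change per list and comparison, and the 10 genes nearest to UHRF1 and to DNMT1. E2F5 and PAGE1 were added after their values were seen, and a few genes that the rule names are not reported here. Depth in the SR2211 pair came from whole reads at 26 microRNA genes in vehicle (100% whole within 0.01 read) and 35 with SR2211 (97.1%). Intervals are exact binomial, at 95%, for counting error only. Alternatives changed pseudocount, filter, scaling, threshold and vehicle. Python 3.11.15, pandas 2.3.3 and scipy 1.17.1 were used.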

Additional observations from a re-analysis of the deposited data

How the results depend on the processing

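UHRF1 and DNMT1 were called lower with SR2211 and with XY011 under all 8 alternatives. UHRF1 ranged from -2.82 to -1.54 with SR2211 and from -4.67 to -3.26 with XY011, and DNMT1 from -1.33 to -1.06 and from -2.13 to -1.53. With a threshold of 1.5-fold, DNMT3A was called higher with SR2211 and with XY011, 1 member each against 0, and UHRF1 (-0.83) lower with ENZ, 1 against 0. Against the mean of the vehicles of the other experiments, 1 member was higher with SR2211, which was TET2 (1.08), and 4 were lower with ENZ, UHRF1 at -2.12, TET1 at -1.24, TET2 at -1.51 and TET3 at -1.28. The cause was not tested, and the vehicles differ in unit and processing. That vehicle also turned the sign of DNMT3A with XY011 (-0.05) and with ENZ (0.95), and of DNMT3B (0.47), TET1 (0.39) and TET3 (0.76) with SR2211, none of which had been called. The median gene of a pair was shifted by -0.16 with XY011, -0.08 with SR2211 and -0.02 with ENZ (log2). No paired analysis was possible because each group has 1 library.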

Other observations

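Enzymes that supply S-adenosylmethionine, the methyl donor of the DNMT proteins, were called in both directions. MTHFD2, a mitochondrial one-carbon enzyme gene, was at 184 RPKM with SR2211, against 64.5 RPKM in vehicle, and at 196 FPKM with XY011, against 53.2 FPKM in vehicle. GNMT, which consumes S-adenosylmethionine to methylate glycine, was lower with all 3 compounds, at 10.8 RPKM with SR2211, against 37.0 RPKM in vehicle, at 12.2 FPKM with XY011, against 39.4 FPKM in vehicle, and at 8.32 FPKM with ENZ, against 58.8 FPKM in vehicle. The thymidylate synthase gene TYMS was lower with SR2211 (-1.40) and XY011 (-1.85), as was SHMT1 with XY011 (-1.70), and MAT1A was higher with SR2211, at 1.93 RPKM, against 0.250 RPKM in vehicle. Of 17 tested genes, 3 were higher and 3 lower with SR2211 (median -0.21), and 1 higher and 6 lower with XY011 (median -0.40). With ENZ 0 were higher and 1 lower (median 0.12). The SR2211 shares were 17.6% each way, against 5.1% higher and 5.75% lower of all tested genes. Those with XY011 were 5.88% higher and 35.3% lower, against 7.59% and 13.2%. The 5.88% lower with ENZ stood against 4.68%.

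Enzymes around 2-oxoglutarate, the cosubstrate of the TET proteins, had 2 of 14 genes higher and 1 lower with both SR2211 (median -0.01) and XY011 (median -0.04). These were 14.3% higher and 7.14% lower with each compound. Among all tested genes 5.1% were higher and 5.75% lower with SR2211, and 7.59% and 13.2% with XY011. IDH1, the cytosolic isocitrate dehydrogenase gene, was at 553 RPKM with SR2211, against 145 RPKM in vehicle, at 360 FPKM with XY011, against 123 FPKM in vehicle, and at 230 FPKM with ENZ, against 132 FPKM in vehicle (log2 0.80, not called). GOT1, an aspartate aminotransferase gene, was higher with SR2211 (1.27) and XY011 (1.16), and IDH3A, of the mitochondrial enzyme, lower (-1.29 and -1.77). With ENZ 0 of 14 were called (median 0.05), against 3.67% higher and 4.68% lower of all tested genes. Among 14 housekeeping genes 0 were called with SR2211 and ENZ. With XY011 2 were higher, ACTB (1.54) among them, and PGK1 (-1.22) and HPRT1 (-1.09) were lower. These were 14.3% each way, against 7.59% higher and 13.2% lower of all tested genes. The lower share was thus near that of all genes. The part of such shifts in the values of the DNA methylation genes was not tested.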
